A study of Mus musculus with 12 samples.

Results

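The genes described here are 37 genes of MHC class I antigen presentation and of the response to interferon, measured by RNA-seq in mouse hypothalamus. They were chosen by name, 13 for antigen presentation and 24 for interferon-induced genes, and found by Ensembl gene ID among the 78334 genes of the deposited count table. All 37 had enough reads to be tested. The 12 libraries came from male C57BL/6 mice, 1 library per mouse, which were 8 weeks old at the start. The control group (C, n = 3) ate standard chow, and the obesity group (Ob, n = 3) ate a high-fat diet (HFD) with 60% of its energy from fat. The other groups ate the HFD and received a daily oral gavage for 28 days from 16 weeks of age, with 2.25 mg/kg of resveratrol (Ob + RSV, n = 3), 200 mg/kg of aged garlic extract (Ob + EAE, n = 2) or 50 mg/kg of curcumin (Ob + CUR, 1 mouse). C and Ob mice received gavage with the vehicle. The labels give a total of 8 weeks of HFD but start the gavage after those weeks, so the total time on the diet is not clear from them.

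MHC class I molecules show fragments of a cell's own proteins to CD8 T cells. A heavy chain (H2-K1, H2-D1 and others in mice) pairs with B2m and takes up peptides that the immunoproteasome cuts and the TAP transporter carries into the endoplasmic reticulum. Interferons raise these genes together with a large set of antiviral genes, type I and III interferons mainly through interferon-stimulated response elements (ISRE), where STAT2 and IRF9 act, and interferon gamma through GAS elements. In the healthy brain class I expression is low in neurons and higher in endothelial cells and microglia.

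The letters of such elements stood before many of these genes, and a few stretches are shown because the genes' levels are compared below as 1 response. The stretches are from RefSeq promoters of build GRCm38.p6, in the direction of transcription, and capitals mark the matches. The motifs searched were GAAANNGAAA on either strand as the core of an ISRE and TTCNNNGAA, which is its own reverse complement, for GAS. They were sought in the 250 bases before each annotated start, and matches of the 2 motifs may overlap. Of the 37 genes, 32 had an entry, and Tap2, Nlrc5, Ifi27, Usp18 and Rtp4 had none. B2m, H2-T23 and H2-T22 of the 11 antigen presentation genes with an entry had the ISRE letters, as did 12 of 21 interferon-induced genes, against 3.46% of all 27025 genes with an entry. The GAS letters stood before Psmb8 and before 5 of the 21 interferon-induced genes, against 8.13% of those genes. The stretches lie at chr2:122147503-122147602 (B2m, plus strand), chr17:36032771-36032870 (H2-T23, minus strand), chr17:34198052-34198151 (Psmb8, plus strand), chr4:156200836-156200935 (Isg15, minus strand), chr19:34640749-34640848 (Ifit1, plus strand), chr19:34583345-34583444 (Ifit3, plus strand) and chr11:53769878-53769977 (Irf1, plus strand).
B2m: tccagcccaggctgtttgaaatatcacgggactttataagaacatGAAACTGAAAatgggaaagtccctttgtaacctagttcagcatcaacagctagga
H2-T23: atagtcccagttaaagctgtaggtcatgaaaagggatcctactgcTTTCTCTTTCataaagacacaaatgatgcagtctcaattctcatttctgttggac
Psmb8: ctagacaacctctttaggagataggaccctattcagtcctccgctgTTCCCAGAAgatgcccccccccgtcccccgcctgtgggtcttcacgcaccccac
Isg15: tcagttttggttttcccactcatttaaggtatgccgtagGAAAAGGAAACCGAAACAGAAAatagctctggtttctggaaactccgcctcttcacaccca
Ifit1: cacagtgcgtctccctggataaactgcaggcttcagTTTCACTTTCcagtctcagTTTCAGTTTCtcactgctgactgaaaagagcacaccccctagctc
Ifit3: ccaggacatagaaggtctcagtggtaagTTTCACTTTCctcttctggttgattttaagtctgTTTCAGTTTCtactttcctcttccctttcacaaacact
Irf1: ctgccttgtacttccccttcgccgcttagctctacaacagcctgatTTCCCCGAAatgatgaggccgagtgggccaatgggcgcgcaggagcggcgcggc
Isg15 held 3 overlapping ISRE matches and Ifit1 and Ifit3 held 2 each, while B2m, H2-T23, Psmb8 and Irf1 held a single match. The windows of H2-K1 and H2-D1 held neither run of letters. Only exact letters were sought, so an element that departs from them would have been missed.

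Libraries held 15655156 to 26284661 assigned reads. C replicate 2, Ob replicate 1 and Ob + RSV replicate 2 stood apart: they detected 24450 to 26123 genes, against 28632 to 38081 in the other 9 libraries, and their most frequent count of 2 or more was 5, 5 and 13 reads, against 2 or 3. Low counts were thus coarser in them. The Ob + EAE and Ob + CUR libraries detected the most genes, 37165 to 38081. Libraries also differed by gene length. Relative to the C mean, genes under 2000 exon bases minus genes of 4000 or more gave a median log2 difference of 0.68 (Ob replicate 1) and 0.41 (Ob + RSV replicate 1), and from -0.32 to -0.52 in the Ob + EAE and Ob + CUR libraries. Median exon lengths were 3381 bases in the antigen presentation genes and 3027 in the interferon-induced genes, against 4261 over genes that reached 500 reads. Results are therefore also given with these 3 libraries left out and after each library was centred in 20 bins of exon length. The centring, and the counts of separated genes without the 3 libraries, were chosen after the data were seen. Since the tissue was measured in bulk, fewer cells of a type and less RNA per cell cannot be told apart.

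Levels are given as normalized CPM, a gene's share of the assigned reads after TMM scaling, set to a common library size, in replicate order. Per kilobase of exon, B2m was the most abundant of the 37 at a mean of 75.0 CPM per kb, followed by Psmb10 at 31.1, H2-D1 at 23.3 and Ifi27 at 23. Nlrc5 was the least abundant at 0.244 CPM per kb. Mean levels ran from 1.56 to 64.5 CPM in the antigen presentation genes and from 0.565 to 33.8 CPM in the interferon-induced genes, of which 14 of 24 averaged under 5 CPM. Antiviral genes such as Isg15, Oas1a and Rsad2 were thus read at very low levels in all groups.

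The classical class I heavy chains and B2m had their highest group means in Ob. H2-D1, a classical heavy chain, stood at 51.4, 43.7 and 52.6 CPM in C, 85.6, 89.8 and 59.9 in Ob, 81.5, 38.3 and 44.7 in Ob + RSV, 56.1 and 47.3 in Ob + EAE, with 69.7 in Ob + CUR. All Ob libraries lay above all C libraries, and within Ob + RSV replicate 1 was at the Ob level while the other two were at or under the C level. H2-K1, the other classical heavy chain of this strain, stood at 22.5, 27.8 and 24.1 CPM in C, 36.9, 47.5 and 35.4 in Ob, 35.3, 17.2 and 19.5 in Ob + RSV, 24.5 and 23.2 in Ob + EAE, with 38.5 in Ob + CUR. All Ob libraries again lay above all C libraries, Ob + RSV replicate 1 was just under the lowest Ob library and the other two under all C libraries, and the Ob + CUR mouse was inside the Ob range. B2m, the light chain shared by all class I molecules, stood at 62.6, 49.1 and 59.4 CPM in C, 78.0, 80.7 and 77.4 in Ob, 64.6, 71.6 and 69.3 in Ob + RSV, 52.5 and 48.1 in Ob + EAE, with 61.1 in Ob + CUR. Its Ob libraries were close together and above all 9 others.

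Among the non-classical heavy chains, H2-T23 (Qa-1, a ligand of NK cell receptors) stood at 10.2, 7.37 and 14.6 CPM in C, 12.6, 20.3 and 13.5 in Ob, 11.5, 9.30 and 7.45 in Ob + RSV, 10.8 and 9.37 in Ob + EAE, with 9.73 in Ob + CUR. Ob and C overlapped, and Ob + RSV lay under Ob. H2-Q4 stood at 2.83, 0.831 and 4.79 CPM in C, 5.44, 7.07 and 4.96 in Ob, 4.00, 0.712 and 1.68 in Ob + RSV, 4.51 and 2.78 in Ob + EAE, with 6.45 in Ob + CUR. Its lowest values were in C replicate 2 and Ob + RSV replicate 2, at 15 and 16 reads, which are among the 3 libraries that stood apart. H2-T22 was not highest in Ob and ranged from 19.4 to 30.6 CPM over the 12 libraries. The heavy chains are close in sequence, and how reads matching several of them were counted is unknown, so a split between them is uncertain.

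Peptide supply genes followed. Tap1, a subunit of the peptide transporter, stood at 6.31, 2.72 and 6.67 CPM in C, 10.2, 8.52 and 7.38 in Ob, 7.19, 0.979 and 3.70 in Ob + RSV, 6.18 and 5.10 in Ob + EAE, with 6.41 in Ob + CUR. Tapbp (tapasin, which loads peptides onto class I) stood at 35.9, 28.8 and 36.0 CPM in C, 43.8, 41.8 and 44.1 in Ob, 39.2, 26.5 and 30.5 in Ob + RSV, 34.7 and 32.9 in Ob + EAE, with 33.7 in Ob + CUR. For both genes every Ob library was above every library of the other groups. Tap2, the second transporter subunit, ranged from 8.09 to 20.3 CPM, with its highest values in Ob replicates 1 and 2.

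Psmb10, an inducible catalytic subunit of the proteasome, stood at 45.2, 40.5 and 61.0 CPM in C, 110, 62.3 and 53.7 in Ob, 78.6, 45.1 and 39.2 in Ob + RSV, 38.6 and 30.9 in Ob + EAE, with 32.2 in Ob + CUR. Ob replicate 1 alone was above all others, while Ob replicate 3 lay inside the C range. Psmb8, another inducible subunit, stood at 3.01, 2.94 and 3.43 CPM in C, 7.2, 4.35 and 5.58 in Ob, 5.61, 1.51 and 2.83 in Ob + RSV, 2.55 and 1.5 in Ob + EAE, with 2.91 in Ob + CUR. Its Ob libraries were all above C, and again Ob + RSV replicate 1 stayed with Ob. Psmb9 was under 3 CPM throughout and had 0 reads in Ob + RSV replicate 2, where a count of 0 allows up to 3 reads. Nlrc5, the transactivator of class I genes, stood at 1.42, 1.27 and 1.83 CPM in C, 2.25, 5.39 and 2.11 in Ob, 1.33, 1.60 and 1.33 in Ob + RSV, 1.95 and 1.5 in Ob + EAE, with 2.82 in Ob + CUR. Ob replicate 2 was far above the other Ob libraries.

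Of the interferon-induced genes, Ifi27, an interferon-induced protein of mitochondrial and nuclear membranes, was the most abundant. It stood at 26.6, 25.9 and 36.2 CPM in C, 67.9, 50.6 and 34.0 in Ob, 38.8, 26.2 and 23 in Ob + RSV, 20.3 and 18.6 in Ob + EAE, with 37.3 in Ob + CUR. Ob replicate 3 lay inside the C range, and the Ob + EAE libraries were the lowest of all 12. Ifitm3, which blocks the entry of enveloped viruses, stood at 7.94, 9.42 and 6.81 CPM in C, 7.04, 8.46 and 6.82 in Ob, 4.76, 3.61 and 3.24 in Ob + RSV, 5.53 and 4.23 in Ob + EAE, with 5.39 in Ob + CUR. C and Ob overlapped, and the libraries of all treated groups lay under both. Ifitm3 has only 678 exon bases, and after centring by exon length its log2 difference in Ob + EAE vs. Ob turned from -0.60 to 0.02 and that in Ob + EAE vs. C went from -0.71 to -0.32, with overlap in both, while Ob + RSV stayed below Ob (-0.94 before, -0.78 after).

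Stat2 and Irf9, transducers of the interferon signal, had a highest over lowest level of 1.79 and 1.77 over the 12 libraries. Stat2 stood at 22.8, 28.0 and 37.7 CPM in C, 24.4, 28.8 and 29.7 in Ob, 21.1, 29.2 and 23.2 in Ob + RSV, 24.7 and 25.3 in Ob + EAE, with 26.9 in Ob + CUR. Irf9, its DNA-binding partner, stood at 17.4, 21.4 and 20.5 CPM in C, 13.4, 23.7 and 23.3 in Ob, 17.0, 21.5 and 15.1 in Ob + RSV, 14.9 and 13.7 in Ob + EAE, with 19.1 in Ob + CUR. Neither gene separated Ob from C or from Ob + RSV. Irf7, an interferon-induced transcription factor that amplifies type I interferon, stood at 1.5, 1.66 and 2.82 CPM in C, 3.90, 5.16 and 2.85 in Ob, 2.18, 6.28 and 0.289 in Ob + RSV, 2.74 and 2.23 in Ob + EAE, with 2.61 in Ob + CUR. Its highest and lowest values were both in Ob + RSV, at 141 reads in replicate 2 and 5 reads in replicate 3. Irf1, a transcription factor induced by interferon gamma, ranged from 4.33 to 9.40 CPM and was above all C libraries in all Ob libraries.

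The IFIT proteins bind viral RNA. Ifit1 stood at 1.46, 0.942 and 3.85 CPM in C, 5.00, 5.85 and 4.72 in Ob, 4.00, 0.445 and 2.89 in Ob + RSV, 2.74 and 2.23 in Ob + EAE, with 3.71 in Ob + CUR. Ifit3 stood at 11.0, 6.98 and 8.08 CPM in C, 8.69, 22.5 and 10.4 in Ob, 16.9, 6.68 and 10.5 in Ob + RSV, 7.66 and 6.42 in Ob + EAE, with 11.3 in Ob + CUR. Ifit1 was thus higher in every Ob library than in the other groups. Among the Ob libraries Ifit3 was high in replicate 2 alone, and its next highest level was in Ob + RSV replicate 1. Ifit2 was not higher in Ob, at 16.4, 14.1 and 10.4 CPM in C, 8.36, 13.3 and 10.6 in Ob, 16.6, 2.63 and 13.3 in Ob + RSV, 13.2 and 13.7 in Ob + EAE, with 29.1 in Ob + CUR. Isg15, a ubiquitin-like protein, stood at 0.558, 1.11 and 0.470 CPM in C, 0.605, 1.04 and 1.06 in Ob, 0.969, 0.668 and 0.636 in Ob + RSV, 0.790 and 0.501 in Ob + EAE, with 0.590 in Ob + CUR. It rested on 10 to 24 reads a library. With an SE of 0.99 for its log2FC in Ob vs. C, a difference of moderate size was not detectable at this depth.

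**Figure D1:**
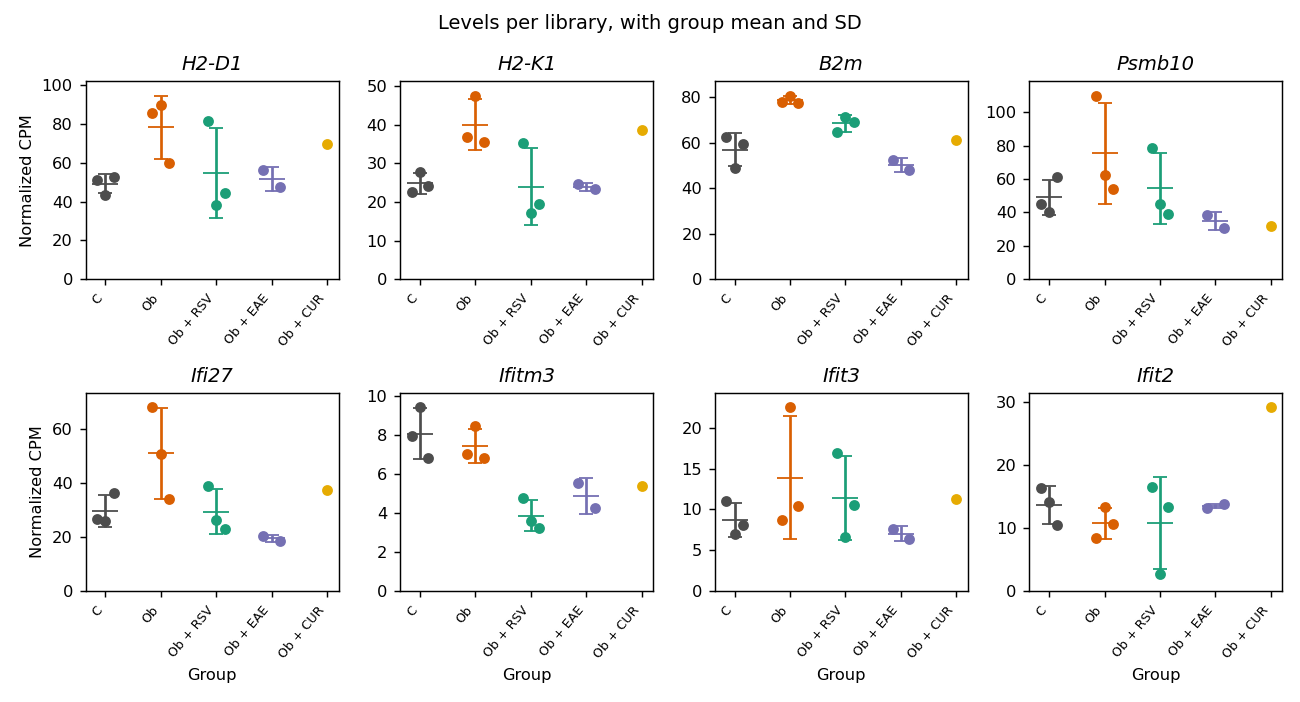
Normalized CPM of 8 genes in each group, 1 point per library, with the group mean as a bar and the SD as whiskers (none for the single Ob + CUR library). The Ob points of H2-D1, H2-K1 and B2m all lie above the C points, Ifitm3 is low in every treated group, and Ifit2 is highest at 29.1 in Ob + CUR.

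Ob vs. C asks what the HFD changed. Antigen presentation genes were higher in Ob for 12 of 13 members, with a median log2FC of 0.60 against -0.00 over all 33534 genes tested, but none passed the adjusted test. In 8 of the 13 every Ob library was above every C library (H2-D1, H2-K1, H2-Q4, B2m, Tap1, Tapbp, Psmb8 and Nlrc5) and in 0 below, against 4.09% above and 3.56% below among all genes. The interferon-induced genes were higher in 20 of 24, with a median log2FC of 0.32, and 3 of 24 separated upward (Ifit1, Irf1 and Irf7). The median of the interferon-induced genes was 0.07 without Ob replicate 2 and was 0.51 without Ob replicate 1, while that of the antigen presentation genes stayed between 0.48 and 0.79 whichever single library was left out.

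By edgeR's quasi-likelihood test 0 of the 37 genes, and 0.0% of all genes, were called (log2FC of 1 or more up or down, adjusted p under 0.05), and DESeq2 also called 0 of the 37. At an unadjusted p under 0.05 stood 4 of the 13 and 2 of the 24, against 2.75% of all genes. These were Ifi27 (log2FC 0.77, SE 0.25), H2-D1 (log2FC 0.65, SE 0.24), H2-K1 (log2FC 0.67, SE 0.25), Psmb10 (log2FC 0.60, SE 0.26), B2m (log2FC 0.45, SE 0.20) and Ifit1 (log2FC 1.30, SE 0.62), all at an edgeR adjusted p of 1.0. Without the 3 libraries that stood apart, the log2FC of Psmb10 was 0.11 and that of Ifi27 was 0.42, and 9 antigen presentation and 12 interferon-induced genes separated upward, where 2 libraries against 2 were left and 13.1% of all genes separated upward. Without Ob replicate 1 alone they were 0.23 and 0.51, and without C replicate 3 the log2FC of Ifit1 was 2.07.

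Cell type lists were set beside this result. The summed level of 12 microglial markers was 291 to 350 CPM in C and 297 to 336 in Ob. That of 12 brain endothelial markers was 220 to 254 CPM in C and 273 to 308 in Ob, with 11 of the 12 higher in Ob, so the endothelial list moved with the class I genes. Markers of neighbouring regions did not all move alike. The 6 thalamic markers summed to 141 to 349 CPM in C and 78.9 to 197 in Ob. For 6 markers of cortex and hippocampus the sums were 32.8 to 66.2 in C and 26.5 to 33.9 in Ob, and none of either list was higher in Ob. Striatal markers went the other way, with 5 of 6 higher in Ob, at sums of 97.1 to 105 CPM in C and 90.6 to 127 in Ob. The 13 hypothalamic markers summed to 1465 to 2140 CPM in C and 1434 to 3278 in Ob. Of these 8 were higher in Ob and 5 lower, with Avp and Pomc higher at an unadjusted p under 0.05. T and NK cell markers summed to at most 1.91 CPM in any library, and 1 of the 10 markers was at 0 in all libraries. By length, the median log2FC in Ob vs. C was 0.22 for genes under 2000 exon bases, 0.09 from 2000 to 4000 and -0.11 from 4000. After centring by length the antigen presentation genes had a median log2 difference of 0.48 and 6 of 13 still separated, and the interferon-induced genes 0.20 and 2 of 24, against 3.08% of all genes so centred. B2m went from 0.47 to 0.23 and overlapped, and H2-Q4 overlapped as well. Psmb6, the constitutive counterpart of Psmb9, was itself highest in Ob replicate 1, at 252 CPM against 73.3 to 188 in the other libraries. The part of the endothelial and regional markers in the result was not tested.

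**Figure D2:**
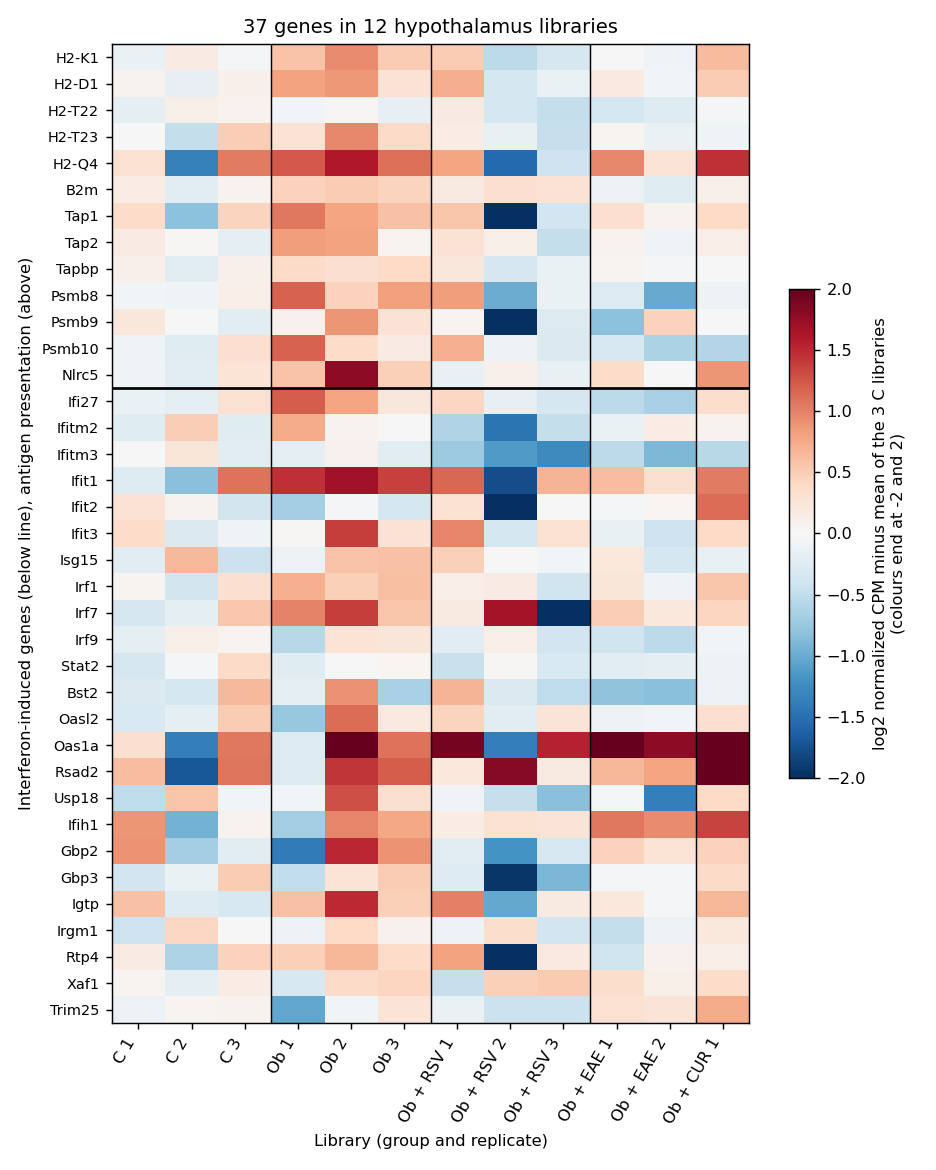
Log2 normalized CPM of the 37 genes (rows) in the 12 libraries (columns) minus the mean of the 3 C libraries, red for higher and blue for lower. Most antigen presentation rows are red in the 3 Ob libraries and in Ob + RSV replicate 1, and the deepest blue is in Ob + RSV replicate 2.

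Ob + RSV vs. Ob asks whether resveratrol shifted the obese profile, and it shares its Ob libraries with Ob vs. C, so that a high Ob level enters both. All 13 antigen presentation genes were lower in Ob + RSV, with a median log2FC of -0.72 against 0.00 over all genes. In 8 of the 13 every Ob + RSV library was below every Ob library (H2-K1, H2-T23, H2-Q4, B2m, Tap1, Tapbp, Psmb9 and Nlrc5) and in 0 above, against 4.1% below and 2.85% above among all genes. The interferon-induced genes were lower in 21 of 24, with a median of -0.29, and Ifitm2, Ifitm3, Ifit1, Irf1 and Usp18 separated. That median was -0.13 without Ob replicate 2, -0.54 without Ob replicate 1, -0.44 without Ob replicate 3 and -0.62 without Ob + RSV replicate 1. After centring by length the antigen presentation median was -0.64 with 7 of 13 separated, and the interferon-induced median -0.26 with 6 of 24, against 3.84% of all genes. B2m went from -0.20 to -0.05 there and overlapped.

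No gene of the 37 was called by edgeR or by DESeq2, and 0.0% of all genes were. An unadjusted p under 0.05 was reached by 5 of the 13 and 3 of the 24, against 3.16% of all genes. With the smallest p first, these included Ifi27 (log2FC -0.79, SE 0.25), H2-K1 (log2FC -0.74, SE 0.25), Ifitm3 (log2FC -0.94, SE 0.37), H2-Q4 (log2FC -1.45, SE 0.59), Tap1 (log2FC -1.14, SE 0.49) and H2-T23 (log2FC -0.72, SE 0.31), all at an edgeR adjusted p of 1.0. H2-D1 and Gbp3, a guanylate-binding protein, were the other 2. Without the 3 libraries that stood apart the log2FC was -0.53 for Tap1, -0.44 for Ifi27 and -0.92 for Ifitm3, and the counts that separated downward were 8 of 13 and 15 of 24, against 15.4% of all genes with 2 libraries against 2. Single libraries also moved these values: without Ob replicate 1 Ifi27 was at -0.52, without Ob replicate 2 H2-T23 was at -0.47, without Ob + RSV replicate 2 Tap1 was at -0.67, and without Ob + RSV replicate 1 Tap1 was at -1.89 and H2-Q4 at -2.27.

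The 3 Ob + RSV mice did not behave alike. Averaged over the 13 antigen presentation genes, the log2 difference from C was 0.39 in replicate 1, -0.78 in replicate 2 and -0.26 in replicate 3, against 0.66, 0.79 and 0.41 in Ob. Replicate 2 was the lowest of all 12 libraries for 6 of the 13 genes and is also the library with the fewest genes detected, so its low values for Tap1, Psmb9 and H2-Q4 rest on 0 to 22 reads. In replicate 3, which detected 32705 genes, 13 of 13 genes were below every Ob library. The endothelial list summed to 201 to 253 CPM in Ob + RSV, below the Ob range, with 0 of its 12 genes higher than in Ob, and microglial markers summed to 283 to 344. The 6 ependymal markers summed to 38.1 to 44.0 CPM, against 46.6 to 115 in Ob, all of them lower and 3 at an unadjusted p under 0.05, while the 6 markers of cortex and hippocampus were all higher than in Ob. The 13 hypothalamic markers summed to 1124 to 2358 CPM, against 1434 to 3278 in Ob, with 10 lower and 3 higher. At an unadjusted p under 0.05 Avp was lower and Pmch higher. The part of these markers was not tested.

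**Figure D3:**
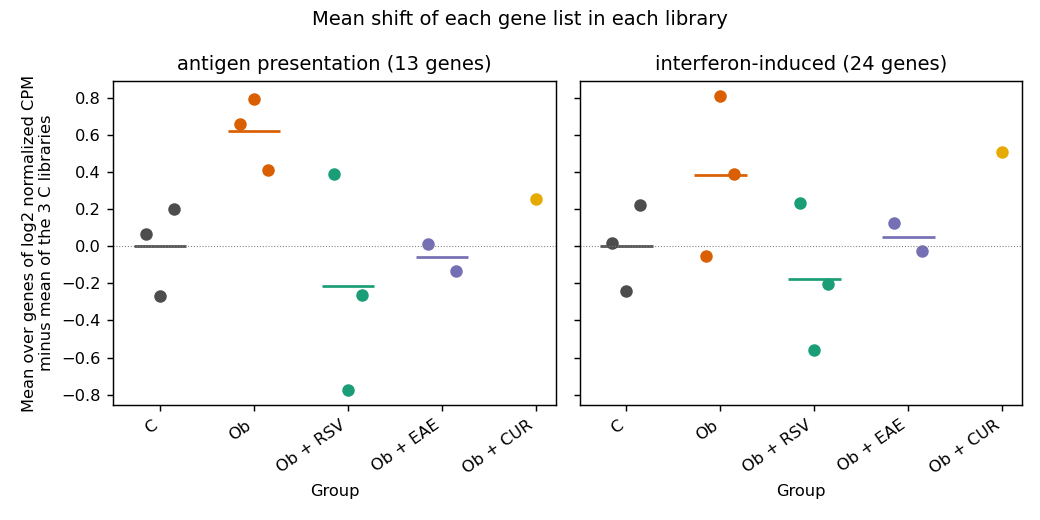
Mean log2 difference from the C mean over the 13 antigen presentation genes (left) and the 24 interferon-induced genes (right), 1 point per library, with a bar at the mean of each group of more than 1 library. On the left the Ob points, from 0.41 to 0.79, lie above all C points, while on the right Ob replicate 1 is at -0.05 and Ob replicate 2 at 0.81.

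Ob + RSV vs. C compares treated obese with lean mice. The antigen presentation genes were higher in 4 and lower in 9 of 13, with a median log2FC of -0.09, and the interferon-induced genes were higher in 10 and lower in 14 of 24, with a median of -0.05. Every Ob + RSV library was above every C library for B2m and below for Ifitm2, Ifitm3 and Trim25, against 2.31% above and 3.12% below among all genes. With 0.0% of all genes called by edgeR, none of the 37 was called, by DESeq2 either. Ifitm3 was the only member at an unadjusted p under 0.05, which 2.87% of all genes reached (log2FC -1.07, SE 0.37, edgeR adjusted p = 1.0). Ifitm3 and its neighbour Ifitm2 are close in sequence, so reads may have been split between them. After centring by length Ifitm3 still separated (-1.05 before, -1.12 after), while B2m went from 0.27 to 0.19 and overlapped. Without the 3 libraries that stood apart 6 interferon-induced genes separated downward in place of 3, against 11.3% of all genes with 2 libraries against 2.

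Ob + EAE vs. Ob asks the same of aged garlic extract, again with the shared Ob libraries. All 13 antigen presentation genes were lower in Ob + EAE, with a median log2FC of -0.63 against 0.05 over all 36164 genes tested, and 19 of the 24 interferon-induced genes were lower, with a median of -0.47. Psmb10 (log2FC -1.12, SE 0.30, edgeR adjusted p = 0.0412) and Ifi27 (log2FC -1.39, SE 0.28, edgeR adjusted p = 0.0116) were called, against 1.84% of all genes. An unadjusted p under 0.05 was reached by 5 of the 13 and 2 of the 24, against 13.4% of all genes, among them B2m (log2FC -0.65, SE 0.21, edgeR adjusted p = 0.101), H2-K1 (log2FC -0.74, SE 0.27, edgeR adjusted p = 0.163), Psmb8 (log2FC -1.49, SE 0.56, edgeR adjusted p = 0.182) and Ifit3 (log2FC -0.98, SE 0.40, edgeR adjusted p = 0.233). H2-D1 was the other.

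In 11 of 13 antigen presentation genes and 9 of 24 interferon-induced genes both Ob + EAE libraries were below all Ob libraries, and in 0 of the 37 above, against 15.5% below and 23.3% above among all genes. Without the 3 libraries that stood apart these counts were 11 and 19, against 23.2% of all genes below with 2 libraries against 2. Without Ob replicate 2 the log2FC of Ifit3 was -0.40 and the interferon-induced median -0.32. Neither call held without Ob replicate 1, where the log2FC was -0.70 for Psmb10 (edgeR adjusted p = 0.435) and -1.09 for Ifi27 (edgeR adjusted p = 0.152), nor without either Ob + EAE library, where the adjusted p of Psmb10 was 0.126 and 0.720 and that of Ifi27 was 0.0702 and 0.327. Short genes as a class were lower here, with a median log2FC of -0.57 under 2000 exon bases, -0.22 from 2000 to 4000 and 0.22 from 4000. After centring by length the median log2 difference was -0.45 in the antigen presentation genes, of which 7 of 13 separated downward, and -0.25 in the interferon-induced genes, of which 7 separated downward and 1 upward, against 14.8% down and 28.3% up among all genes. Psmb10, of 1705 exon bases, went from -1.05 to -0.55 and Ifi27, of 1467, from -1.33 to -0.83, both still separated, while B2m, of 860, went from -0.65 to -0.11 and overlapped.

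Constitutive subunits, which the inducible ones replace in the proteasome, were set beside Psmb10. Psmb7, whose place Psmb10 takes, was not called (log2FC -0.46, SE 0.24, edgeR adjusted p = 0.434). Psmb6 was called lower (log2FC -1.15, SE 0.28, edgeR adjusted p = 0.0261), and Psmb5 was not called (log2FC -1.06, SE 0.30, edgeR adjusted p = 0.0587). The endothelial list summed to 479 to 494 CPM in Ob + EAE and 548 in Ob + CUR, above every other library, with 11 of its 12 genes higher than in Ob, so here it moved opposite to the class I genes. Microglial markers summed to 290 to 316 CPM, near the Ob range, but 7 of the 12 were lower than in Ob, with Aif1 called lower, C1qa and C1qb lower at an unadjusted p under 0.05 and Sall1 higher at that p. The ependymal markers summed to 27.9 to 32.4 CPM, with 6 of 6 lower than in Ob, 5 of them at an unadjusted p under 0.05 and 1 called, so they moved with the class I genes. The hypothalamic markers summed to 1061 to 1250 CPM, against 1434 to 3278 in Ob, with 9 of 13 lower. The part of these markers was not tested. The Ob + EAE and Ob + CUR libraries share their high number of genes detected and their low short genes, which cannot be told apart from the treatments.

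**Figure D4:**
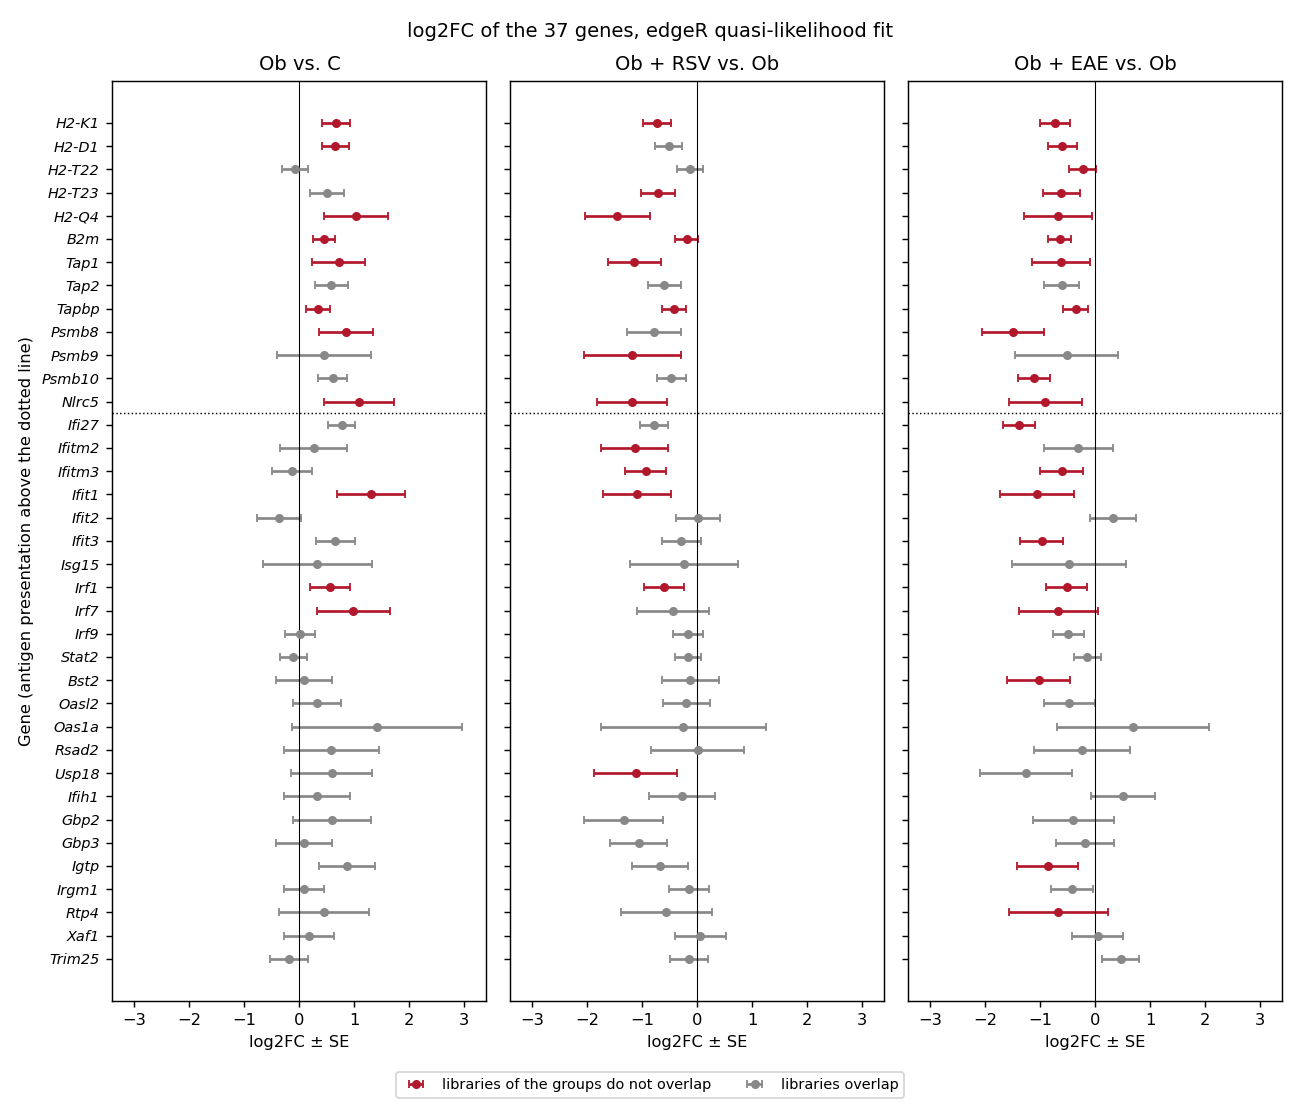
Log2FC with its SE for the 37 genes in Ob vs. C, Ob + RSV vs. Ob and Ob + EAE vs. Ob, red where the libraries of the groups do not overlap. Antigen presentation genes lie right of 0 in 12 of 13 cases in the first panel and left of 0 in 13 of 13 in the other panels, which all use the same 3 Ob libraries.

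Ob + EAE vs. C showed medians of -0.06 in both lists, against 0.05 over all genes, with 5 of 13 and 10 of 24 genes higher. None of the 37 was called by edgeR or by DESeq2, against 0.0138% of all genes, and Ifi27 alone had an unadjusted p under 0.05 (log2FC -0.61, SE 0.28, edgeR adjusted p = 1.0), which 4.35% of all genes reached. Both Ob + EAE libraries were above all C libraries for Oas1a, Ifih1 and Trim25 and below for H2-T22, Psmb8, Psmb10, Ifi27, Ifitm3, Irf9 and Bst2, against 19.6% above and 10.5% below among all genes. Without the 3 libraries that stood apart, 6 antigen presentation genes separated downward in place of 3, against 17.7% of all genes with 2 libraries against 2. Genes under 2000 exon bases had a median log2FC of -0.32 here. After centring by length, 1 antigen presentation and 3 interferon-induced genes separated downward and 1 and 2 upward, against 11.3% down and 21.4% up among all genes. Psmb10 went from -0.48 to -0.205 and overlapped, as did Ifitm3. Psmb8 (-0.64 before, -0.58 after) and Ifi27 (-0.59 before, -0.31 after) still separated.

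The Ob + CUR mouse has no replicate and no test. Its mean log2 difference from C was 0.26 over the antigen presentation genes and 0.51 over the interferon-induced genes, the second being higher than in every library but Ob replicate 2. It was the highest of the 12 libraries for 4 of 24 interferon-induced genes. Ifit2 was at 29.1 CPM there against 2.63 to 16.6 elsewhere. Trim25, a ubiquitin ligase of the RIG-I pathway, was at 16.4 CPM against 4.73 to 12.1. Rsad2 (viperin) was at 3.29 CPM, and Ifih1 (MDA5, a sensor of double-stranded RNA) at 5.56. In contrast Psmb10, at 32.2 CPM, was near the Ob + EAE level. This mouse also had the lowest sum over the 13 hypothalamic markers, 325 CPM against 1061 to 3278 in the other libraries. In the others most of that sum came from Avp, Oxt and Pmch, and 2 other markers of the list were highest in this mouse, Nkx2-1 at 85.5 CPM and Sim1 at 23.8.

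Within Ob, replicates 1 and 2 carried different genes. Ob replicate 2 was the highest of all 12 libraries for 7 of 13 antigen presentation genes and 9 of 24 interferon-induced genes, among them Ifit3, Oasl2, Igtp and Usp18. Ob replicate 1 was the highest for 4 of the 13, including Psmb10 and Psmb8, but among the 3 lowest for 10 of the 24, such as Gbp2 at 0.605 CPM and Trim25 at 4.73. Ob replicate 1 is also among the 3 libraries that stood apart. Its short genes were raised the most against long ones (0.68, against 0.20 in Ob replicate 2). Psmb10 has 1705 exon bases and Trim25 has 5754, but Gbp2 has 2516. The part of gene length in these differences was not tested. Ob replicate 3 was closest to C in the antigen presentation genes. Oas1a, Psmb9 and Rtp4 had 0 reads in at least 1 library each.

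Other genes of the pathway were looked up as fixed lists. Of 8 interferon genes, 5 (Ifnb1, Ifna4, Ifna2, Ifne and Ifnl3) had no read in any library, where a count of 0 allows up to 0.192 CPM in the smallest library. Ifng had 30 reads over all 12 libraries and Ifnl2 had 9. None of the 15 receptors and transducers was called in any of the 5 comparisons, with 6 of 15 higher in Ob vs. C. In Ob + EAE vs. Ob 3 of the 15 had an unadjusted p under 0.05, Jak1 (log2FC 0.57, SE 0.22, edgeR adjusted p = 0.178) and the receptor chain Ifnar1 (log2FC 0.53, SE 0.24, edgeR adjusted p = 0.319) on the higher side and Irf3 (log2FC -0.64, SE 0.25, edgeR adjusted p = 0.195) on the lower, and none had in the other 4 comparisons.

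Of 21 other antigen presentation genes, 14 were higher in Ob than in C, with a median log2FC of 0.19, and H2-Q7 and Psmb6 had an unadjusted p under 0.05. In Ob + RSV vs. Ob 7 of the 21 were higher, with a median of -0.10 and none at that p. Of 7 MHC class II genes, which serve CD4 T cells, 5 were higher in the Ob vs. C fit, and 2 were higher in Ob + RSV vs. Ob, with none at an unadjusted p under 0.05. Of 50 other interferon-induced genes tested, 32 were higher in Ob than in C (median 0.26) and 12 were higher in Ob + RSV than in Ob (median -0.37), where Gbp4 alone had an unadjusted p under 0.05 (log2FC -2.30, SE 0.90, edgeR adjusted p = 1.0). In Ob + EAE vs. Ob 30 of the 50 were higher (median 0.18), the other direction from the 24 members. In Ob + EAE vs. C 40 of the 50 were higher (median 0.33), against 53% of all genes. Of the 50, 17 separated upward and 1 downward there, against 19.6% and 10.5% of all genes. Gbp5, Gbp7 and Slfn5 were higher at an unadjusted p under 0.05, which 4.35% of all genes reached. Among 15 nucleic acid sensors and adaptors tested, 13 were higher in Ob + EAE than in Ob. Adar and Tlr9 were higher there at an unadjusted p under 0.05. Adar is an RNA editor that keeps self RNA from being sensed. Its log2FC was 0.89 (SE 0.22, edgeR adjusted p = 0.0268), without reaching the 1 that a call needed. The Ob vs. C fit put 10 of these 15 genes down and 5 up (median -0.19), Tlr7 and Adar being down at that unadjusted p. Adar stood at 181, 178 and 124 CPM in C, 95.2, 136 and 129 in Ob, with 206 and 238 in Ob + EAE. A low Ob level of Adar thus enters its Ob + EAE vs. Ob result.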

How the data were processed

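Hypothalamic RNA was sequenced after poly-A selection with a stranded kit. The deposited values were raw counts per gene, made by the authors with HISAT2 and featureCounts (per the labels and methods, build GRCm39). No source used here names the release of the annotation, how strand was set or where reads with several matches went, so antisense or overlapping genes and close paralogs cannot be told apart. Gene symbols were joined by Ensembl ID, for 65.7% of the 78334 rows. The genes and lists were chosen with earlier results of these data known. Counts were fitted in edgeR 4.0.16 (R 4.3.3; TMM, quasi-likelihood F test, Benjamini-Hochberg adjustment over all genes with at least 10 reads in total, two-sided), C, Ob and Ob + RSV in 9 libraries and the Ob + EAE comparisons in 12. A call needed an adjusted p under 0.05 and an absolute log2FC of at least 1. The test was checked on simulated data. Groups that did not overlap were counted on normalized CPM. Named genes were those highest in each list, 6 chosen by name (Irf7, Stat2, Ifit3, Isg15, Nlrc5 and B2m) and those with an unadjusted p under 0.05, at most 12 by level and 6 per comparison. Exon lengths came from GENCODE M21 by gene ID, as the union of all annotated exons of a gene. They can exceed the length of the main transcript, so a gene may have been centred with longer ones. Alternatives were RLE and upper quartile scaling, other filters, DESeq2 1.42.0, a replicate block, other library sets and each library left out. Libraries held 15655156 to 26284661 counts. Replicates were separate mice. Floors cover counting error only. A result of the signalling list that had been set to be named is not reported here.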

Additional observations from a re-analysis of the deposited data

How the results depend on the processing

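In Ob + EAE vs. Ob the 2 calls became 0 with filterByExpr and without the 3 libraries that stood apart, 1 with only the 2 groups in the fit, and 0 to 2 with 1 library left out, 0 without Ob replicate 1, Ob + EAE replicate 1 or Ob + EAE replicate 2 (where the remaining library was taken to vary like the other groups). DESeq2 called 3 (Psmb8 in addition), and the replicate block 3 (Ifit3 in addition). Whether the replicate numbers link mice across groups is not settled. Deviations from group means correlated at -0.03 to 0.33 in 9 same-number pairs, 4 of them at over 0.1. In pairs with different numbers they correlated at -0.31 to 0.15. The main fits took group only and no pairing. With the replicate block the median log2FC of the antigen presentation genes was 0.55 (Ob vs. C), -0.71 (Ob + RSV vs. Ob) or -0.68 (Ob + EAE vs. Ob), and the other comparisons kept 0 calls. Centring by exon length moved the median difference of mean log2 CPM of the antigen presentation genes in Ob + EAE vs. Ob from -0.61 to -0.45. Over the other settings, Ob vs. C gave antigen presentation medians of 0.46 to 0.79 and interferon-induced medians of 0.07 to 0.51. For Ob + RSV vs. Ob these were -0.90 to -0.51 and -0.62 to -0.13, and for Ob + EAE vs. Ob -0.75 to -0.46 and -0.65 to -0.32. In Ob + RSV vs. C and Ob + EAE vs. C the antigen presentation medians crossed 0, at -0.35 to 0.06 (without Ob + RSV replicate 1 and without C replicate 3) and -0.11 to 0.09. The interferon-induced median also crossed 0 in Ob + RSV vs. C, at -0.22 to 0.05. In Ob + EAE vs. C that median was -0.13 to -0.01 over these settings, but 0.06 after centring by exon length. No log2FC of the 37 genes given with its p changed sign. Levels under about 5 CPM were limited by depth, most of all in Ob + RSV replicate 2.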
